A study of Mus musculus with 6 samples.

Results

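The mouse genes Tmem220, Podn, Mpzl1, Serpina1a, Kcnj15, Hspb7, Tmem37 and Ptgis were described across sorted spleen macrophages of normal mice and of mice with T cell acute lymphoblastic leukemia (T-ALL). They are 8 of 16058 gene identifiers in the data, and they were chosen by their FPKM in 2 of the libraries studied, as genes whose level in the Ly6cloF4/80hi gate was far lower in T-ALL than in normal mice. The question was which of them differed between the states in that gate alone and which also did so in the other gates. RNA was sequenced from 3 gates set on the monocyte antigen Ly6C and the macrophage antigen F4/80 (Ly6chiF4/80lo, Ly6cloF4/80lo and Ly6cloF4/80hi). The normal libraries came from spleens at day 0. The T-ALL libraries came from spleens at day 15 after C57BL/6 mice, aged 6 to 8 weeks and not irradiated, had each received 1000000 GFP-positive leukemia cells taken from diseased mice. Such mice lived for 35 to 40 days. There was 1 library per gate and state, 6 in all, so no value has a replicate. The labels do not say how many mice gave a library or whether the gates of a state came from the same mice.

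Cells with high F4/80 and low Ly6C in the spleen are known mainly as red pulp macrophages, which take up aged red cells, recycle their iron through the exporter ferroportin and depend on the transcription factor Spi-C. Ly6C-high cells with low F4/80 are mainly monocytes and their precursors. Of the 8 genes, 4 encode membrane proteins (Tmem220, Mpzl1, Tmem37, Kcnj15), 2 encode secreted proteins (Podn, Serpina1a) and the others encode a small heat shock protein (Hspb7) and an enzyme of prostacyclin synthesis (Ptgis). They do not form 1 pathway.

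The libraries listed 14225 to 14628 genes, and their depth, recovered from the spacing of the low values, lay between 6705000 and 8685000 fragments. The sort markers followed the gates. Adgre1, which encodes F4/80, had 529 FPKM in normal Ly6cloF4/80hi cells, 234 FPKM in those of T-ALL, and 47.3 to 86.7 FPKM in the other 4 libraries. FPKM is a count of fragments scaled to transcript length and library depth, so levels can be set side by side between genes. Ly6c2 had 482 and 1405 FPKM in Ly6chiF4/80lo and at most 21.4 FPKM in the other gates. All 3 gates also held B cell transcripts (Cd79a at 450 to 1167 FPKM), while the summed level of 9 fibroblast and reticular stroma genes stayed between 1.09 and 2.53 FPKM and that of 3 hepatocyte genes was at most 0.38 FPKM. In T-ALL Ly6cloF4/80hi the summed level of 11 erythroid genes was 40195 FPKM against 5180 FPKM in normal. That of 16 red pulp macrophage genes was 8214 against 20682 FPKM. The sum of 8 T cell genes was 96.33 against 64.15 FPKM, and that of 6 plasma cell genes 1672 against 453 FPKM. Among the T cell genes of at least 1 FPKM, 2 were at least 2-fold higher and 0 lower. Of 7 eosinophil genes the summed level there was 286 FPKM in normal mice, of which Ccr3 made up 264 FPKM, and 90.4 FPKM in leukemic mice, while the defining genes Epx and Prg2 had at most 7.28 FPKM in normal and at most 23.3 FPKM in T-ALL. The sum of 9 endothelial genes was 47.9 and 27.7 FPKM, with 2 genes at least 2-fold lower and 2 higher in T-ALL. Stab2 had 39.4 and 13.2 FPKM and Vwf 6.86 and 3.28 FPKM. Egfl7 had 0.45 and 7.08 FPKM, Plvap 0.71 and 2.40 FPKM and Kdr 0.24 and 0.88 FPKM, while Cdh5 was under 0.5 FPKM. The part of these cell types in the results was not tested. In such sorted bulk RNA, fewer cells of a type and less RNA per cell cannot be told apart.

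In the Ly6cloF4/80hi gate the 8 genes lay 5.89-fold to 381-fold lower in T-ALL than in normal. These values chose the genes and are given as a description. Among the 5966 genes with a normal level of at least 11.28 FPKM, the lowest among the 8, they held places 1 (Tmem220), 2 (Serpina1a), 3 (Podn), 4 (Kcnj15), 7 (Hspb7), 9 (Mpzl1), 12 (Ptgis) and 13 (Tmem37) in the order of falls. The genes of this order outside the set began with Pate9 (27.65 to 1.43 FPKM, 19.3-fold), Mfsd4b5 (34.74 to 2.79 FPKM, 12.5-fold) and Abca9 (13.45 to 1.92 FPKM, 7.01-fold). At the lower end of the set, Tmem37 had 5.89-fold, and the next gene outside it, Adcy3, had 31.57 and 5.78 FPKM (5.46-fold). Among 11602 genes that reached 1 FPKM in either library of the gate, 1151 (9.92%) were at least 2-fold lower in T-ALL and 1446 (12.5%) at least 2-fold higher.

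**Figure D1:**
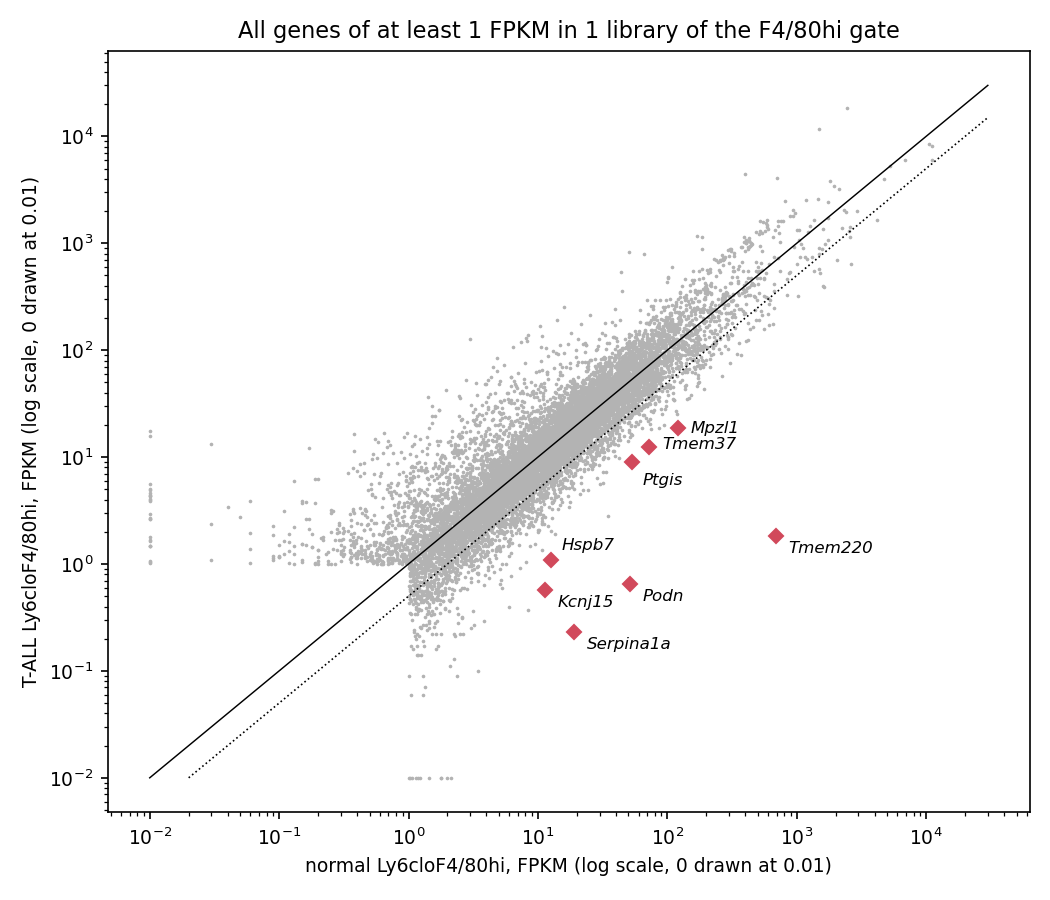
Level of each gene in T-ALL (vertical) against normal (horizontal) Ly6cloF4/80hi cells, FPKM on log axes; grey points are the 11602 genes of at least 1 FPKM in 1 library, red diamonds the 8 genes, the solid line equal levels and the dotted line 2-fold lower. Tmem220, Podn, Serpina1a, Kcnj15 and Hspb7 lie far below the cloud, and Mpzl1, Tmem37 and Ptgis lie along its lower edge.

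"Nearly lost" held for 5 of the 8 genes. Of their normal level in this gate, 0.262% was left in T-ALL for Tmem220, 1.21% for Serpina1a, 1.27% for Podn, 5.05% for Kcnj15 and 8.48% for Hspb7. Mpzl1, Ptgis and Tmem37 retained 15.4%, 16.7% and 17.0%. By comparison, the largest difference among 16 red pulp macrophage genes in the same pair of libraries was that of Cd163, the hemoglobin scavenger receptor, at 4.32-fold, followed by Trf (4.22-fold), Hmox1 (4.17-fold) and Slc40a1 (4.03-fold). Of those 16 genes, 13 were at least 2-fold lower, and Cd5l was not lower (508.7 and 546.8 FPKM).

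Tmem220, which encodes a predicted multipass membrane protein, showed the widest contrast of the 8. In normal Ly6cloF4/80hi it stood at 693.64 FPKM, above the level of Adgre1 there. In T-ALL Ly6cloF4/80hi it was at 1.82 FPKM, a 381-fold difference (95% counting interval 252 to 622, from about 7135 and 21 fragments). The other gates held 1.95 and 1.57 FPKM (normal and T-ALL Ly6chiF4/80lo) and 1.94 and 1.88 FPKM (Ly6cloF4/80lo). Thus 5 of the 6 libraries lay between 1.57 and 1.95 FPKM, and the normal F4/80hi library alone was high. In normal mice the F4/80lo gates carried 0.281% and 0.280% of the F4/80hi level of Tmem220. The 16 red pulp genes carried at least 2.34% in Ly6chiF4/80lo and at least 2.90% in Ly6cloF4/80lo.

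Mpzl1 encodes an immunoglobulin-family glycoprotein whose cytoplasmic tail binds the phosphatase SHP-2. Its levels in normal Ly6chiF4/80lo, Ly6cloF4/80lo and Ly6cloF4/80hi were 3.15, 4.10 and 120.91 FPKM. In T-ALL they were 3.11, 2.09 and 18.57 FPKM. The F4/80hi pair differed 6.51-fold (counting interval 5.82 to 7.32), the Ly6cloF4/80lo pair 1.96-fold (1.32 to 3.02) and the Ly6chiF4/80lo pair 1.01-fold (0.672 to 1.55). The gene remained highest in the F4/80hi gate in T-ALL. Of its relatives, Mpzl3 stood between 2.73 and 6.65 FPKM in the 6 libraries, and Ptpn11, which encodes SHP-2, between 6.01 and 10.09 FPKM, with T-ALL Ly6cloF4/80hi at 7.34 FPKM against 6.01 FPKM in normal.

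Tmem37 encodes a membrane protein related to the gamma subunits of voltage-gated calcium channels. The normal gates, in the order above, held 8.53, 4.47 and 72.61 FPKM, and the T-ALL gates 3.02, 1.32 and 12.33 FPKM. All 3 T-ALL values were lower than their normal counterparts, by 2.83-fold (1.79 to 4.55), 3.39-fold (1.86 to 6.78) and 5.89-fold (4.91 to 7.13). Of 9 listed genes of this family 4 were in the files, and no other reached 1 FPKM in a library.

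Kcnj15 encodes the inward rectifier potassium channel Kir4.2. Normal levels were 0.99, 0.68 and 11.28 FPKM and T-ALL levels 0.51, 0.56 and 0.57 FPKM. The 3 T-ALL gates lay together, below each normal gate. In the F4/80hi gate the difference was 19.8-fold (counting interval 13.2 to 32.1). It was 1.94-fold (1.06 to 3.815) in Ly6chiF4/80lo. In Ly6cloF4/80lo it was 1.21-fold, with an interval (0.674 to 2.29) that includes equal levels. Among the other channels of this family, Kcnj16 had 85.90 FPKM in normal Ly6cloF4/80hi cells and 18.91 FPKM in T-ALL (4.54-fold), Kcnj10 at 13.31 and 3.96 FPKM (3.36-fold), Kcnj9, which has an antisense gene, at 12.60 and 2.05 FPKM (6.15-fold) and Kcnj2 at 5.24 and 2.05 FPKM (2.56-fold). All 5 channel genes that reached 1 FPKM in that gate were at least 2-fold lower, Kcnj15 among them, against 9.92% of all genes. Kcnj15 was chosen on this pair of libraries, in which 13 of 16 red pulp macrophage genes were lower too. Nothing about the channel family is read from this count. The other channels differed from Kcnj15 in that Kcnj16, Kcnj10 and Kcnj9 stayed above both F4/80lo gates in T-ALL (18.91 against 2.06 and 3.38 FPKM for Kcnj16).

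Podn encodes podocan, a secreted small leucine-rich proteoglycan of the extracellular matrix. Normal libraries held 0.65, 0.91 and 51.09 FPKM of it, and those of T-ALL mice 0.23, 0.18 and 0.65 FPKM. The difference was 78.6-fold in Ly6cloF4/80hi (48.8 to 131), 5.06-fold in Ly6cloF4/80lo (1.79 to 16.2) and 2.83-fold in Ly6chiF4/80lo (0.934 to 9.51). The latter intervals are wide because the gene had about 5 fragments in each T-ALL F4/80lo library. Its locus overlaps Scp2 on the same strand in the GENCODE M21 annotation, and Scp2 itself had 114.4 FPKM in normal Ly6cloF4/80hi cells against 96.24 FPKM in T-ALL. Of the 17 listed proteoglycan genes, Tsku (9.95 and 2.10 FPKM, 4.74-fold) and Ecm2 (2.30 and 0.85 FPKM, 2.71-fold) were lower in T-ALL Ly6cloF4/80hi, while Nyx (2.01 and 1.65 FPKM) and Omd (262.57 and 271.70 FPKM, in a locus shared with Cenpp on the opposite strand) differed by less than 2-fold.

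Serpina1a encodes an alpha-1 antitrypsin, a secreted inhibitor of neutrophil elastase. Normal libraries had 0.70, 1.70 and 19.08 FPKM, whereas those of leukemic mice had 0.23, 0.32 and 0.23 FPKM. In the F4/80hi gate this was an 83.0-fold difference, with a counting interval of 26.9 to 389.5 because T-ALL held about 3 fragments. The Ly6cloF4/80lo pair differed 5.31-fold (1.65 to 20.1). In mice the gene has near-identical copies. Of the 50-base words in its longest transcript, 67.4% also occur in transcripts of other genes and 57.5% occur in Serpina1c. In addition, the files list no value for Serpina1b, Serpina1c, Serpina1d or Serpina1e, so the value may hold reads of these copies. Elane, which encodes neutrophil elastase, had 75.74, 5.67 and 3.38 FPKM in the normal libraries, against 495.24, 40.60 and 9.30 FPKM in leukemic mice. Other serpins differed by less than 2-fold in the F4/80hi gate (Serpina3g at 192.98 and 300.10 FPKM, Serpinb6a at 167.59 and 95.39 FPKM, Serpinb1a at 46.10 and 56.22 FPKM).

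Hspb7 encodes a small heat shock protein known best from heart muscle. Normal levels were 1.04, 2.13 and 12.73 FPKM and T-ALL levels 0.81, 1.03 and 1.08 FPKM. The F4/80hi pair differed 11.8-fold (7.77 to 18.1), the Ly6cloF4/80lo pair 2.07-fold (1.20 to 3.44) and the Ly6chiF4/80lo pair 1.28-fold (0.620 to 2.63). Hspb6 (2.31 and 6.52 FPKM) and Hspb11 (7.94 and 16.37 FPKM), listed with it by name, were at least 2-fold higher in T-ALL Ly6cloF4/80hi. Hspb1 and Cryab, also listed, were under 1 FPKM in both libraries of that gate.

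Ptgis encodes prostacyclin synthase, which turns prostaglandin H into prostacyclin. In normal mice it reached 1.01, 3.65 and 53.72 FPKM, and under leukemia 0.26, 0.34 and 8.98 FPKM. All 3 T-ALL values were lower, by 3.89-fold in Ly6chiF4/80lo (1.16 to 14.8), 10.7-fold in Ly6cloF4/80lo (4.54 to 29.7) and 5.98-fold in Ly6cloF4/80hi (5.05 to 7.12). Ptgis was the only one of the 8 whose widest contrast between the states was not in the F4/80hi gate, and the intervals of the Ly6clo gates overlap. Upstream and sister enzymes in T-ALL against normal Ly6cloF4/80hi were Ptgs1, the constitutive cyclooxygenase (80.91 and 199.90 FPKM, 2.47-fold lower), Tbxas1, thromboxane synthase (46.09 and 168.56 FPKM, 3.66-fold), Hpgds, a prostaglandin D synthase (26.87 and 57.81 FPKM, 2.15-fold), and Hpgd, which degrades prostaglandins (139.97 and 318.87 FPKM, 2.28-fold). Ptges3 (109.19 and 67.92 FPKM) and Alox5ap (58.50 and 78.24 FPKM) differed by less than 2-fold. Hpgd is also 1 of the 16 red pulp genes above. Of 19 prostanoid genes that reached 1 FPKM in this gate, 7 were at least 2-fold lower, Ptgis among them, and 4 at least 2-fold higher, against 9.92% and 12.5% of all genes. Ptgis was chosen on this pair of libraries, in which 13 of the 16 red pulp genes were lower too. Nothing about prostanoid genes as a group is read from these counts.

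**Figure D2:**
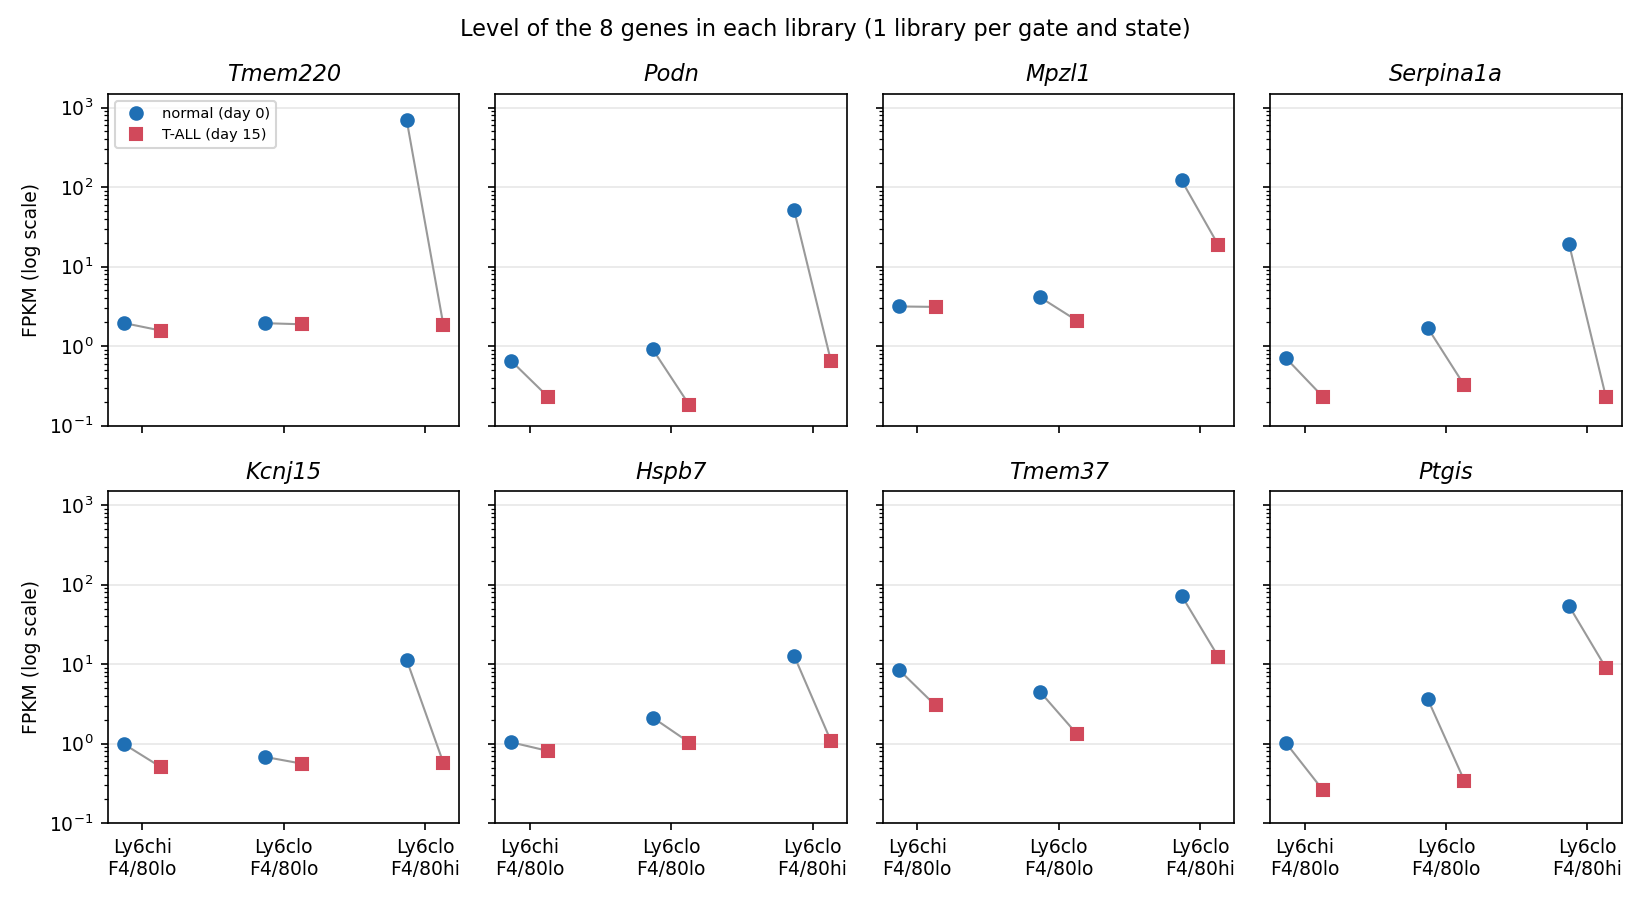
FPKM (log scale) of each of the 8 genes in the 3 gates; blue circles are normal libraries, red squares T-ALL libraries, 1 library each, and grey lines join the pair of a gate. The T-ALL F4/80hi value of Tmem220, Serpina1a, Kcnj15 and Hspb7 lies at the level of the F4/80lo gates, and that of Mpzl1, Tmem37 and Ptgis stays above it.

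The genes were set apart by how much of their F4/80hi enrichment was left in T-ALL, again a description of the libraries that chose them. The ratio of the F4/80hi level to the mean of both F4/80lo gates was 357 for Tmem220 in normal mice and 1.06 in T-ALL. It went from 15.9 to 0.836 for Serpina1a, from 13.5 to 1.07 for Kcnj15 and from 8.03 to 1.17 for Hspb7. In T-ALL the F4/80hi level of these 4 genes was thus close to their F4/80lo level. For Serpina1a this rests on about 3 fragments in T-ALL Ly6cloF4/80hi and about 2 and 4 in the F4/80lo libraries. These are too few to show equal levels. Podn went from 65.5 to 3.17. Mpzl1 (33.4 and 7.14), Tmem37 (11.2 and 5.68) and Ptgis (23.1 and 29.9) stayed enriched. The ratio of Mpzl1 shrank 4.67-fold and that of Tmem37 1.97-fold. The 16 red pulp genes had a median ratio of 20.7 in normal and 17.5 in T-ALL, and the ratio of no gene among them shrank by more than 2.18-fold. Of 145 genes at least as abundant and as enriched in normal F4/80hi cells as the lowest of the 8 (11.28 FPKM and a ratio of 8.03), 9 had a ratio under 2 in T-ALL. These were the 4 named above and Pate9, Slpi, Maged1, Arsg and A4galt, chosen after their values were seen. Slpi, Maged1, Arsg and A4galt had higher levels in T-ALL than in normal Ly6chiF4/80lo (157.0 and 3448.82 FPKM for Slpi), and Pate9 had 3.92 and 2.56 FPKM there.

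**Figure D3:**
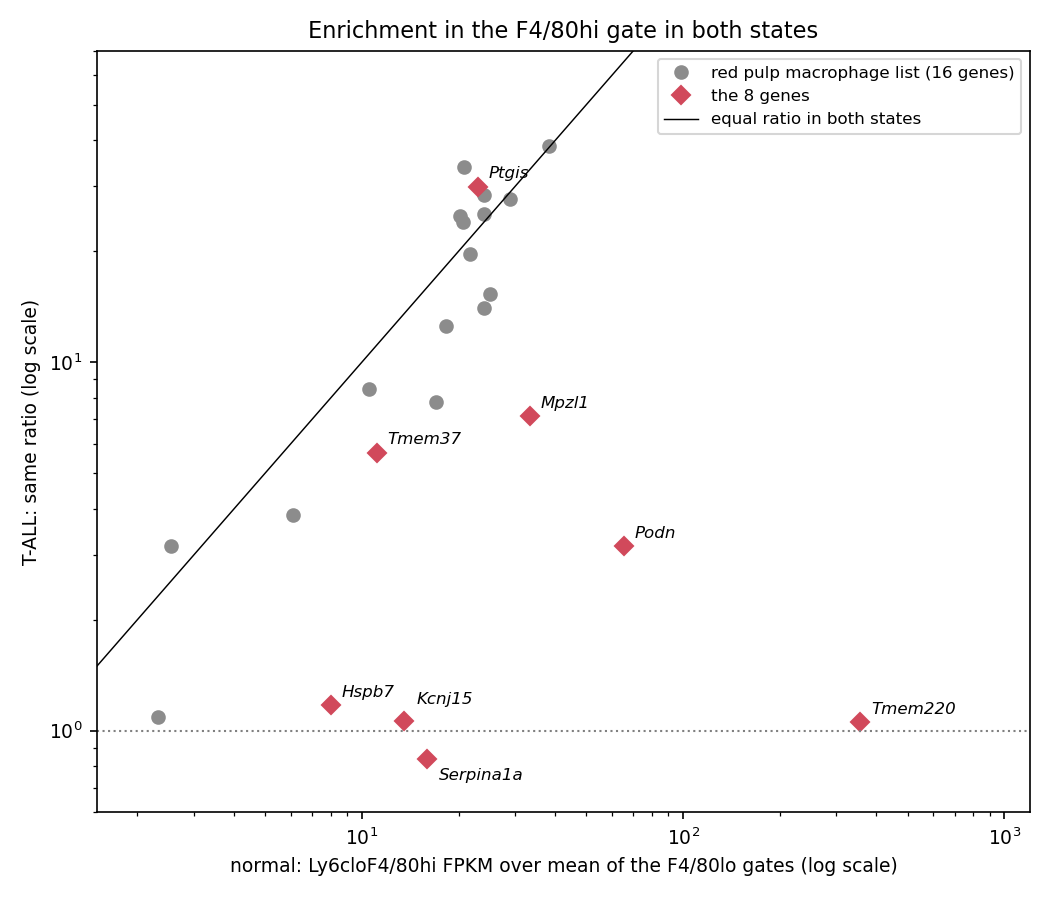
Ratio of the Ly6cloF4/80hi level to the mean of both F4/80lo gates in T-ALL (vertical) against normal (horizontal), log axes; red diamonds are the 8 genes, grey circles 16 red pulp macrophage genes, the solid line an equal ratio and the dotted line a ratio of 1. Tmem220, Serpina1a, Kcnj15 and Hspb7 lie near the dotted line with 1 red pulp gene, Treml4 (1.09), and Ptgis lies among the other red pulp genes. Podn (3.17), Mpzl1 (7.14) and Tmem37 (5.68) lie above the dotted line and below the solid line. Red pulp genes such as Adgre1 (3.845) lie at T-ALL ratios in this range too.

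The F4/80lo gates did not choose the genes, and there the state change could be tested. A linear model of log2(FPKM + 1) with gate and state was fitted to the 4 F4/80lo libraries with limma, over 11992 genes with a mean of at least 0.5 FPKM. At an adjusted p under 0.05 (Benjamini-Hochberg over all genes), 68 genes (0.567%) were lower in T-ALL and 264 (2.2%) higher. Of the 8 genes 7 could be tested, 1 fell, 0 rose and 6 did not pass, and 7 of 7 estimates were below 0. Their median log2 was -0.40, against -0.04 for all genes tested. Serpina1a and Ptgis had at most 0.34 FPKM in the T-ALL libraries and passed the filter through the normal ones. The filter thus favoured their direction, and nothing is read from the direction that the 7 share. With 2 libraries against 2, an exact permutation test of a single gene cannot go below p = 0.333, so the calls rest on the spread shared across genes. With gate in the model, the p-values set the state difference against how unlike it was in the F4/80lo gates. Whether libraries of a state share mice is not stated, so they do not measure the spread between mice.

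Tmem37 was the gene that fell in the F4/80lo gates (log2 -1.24, SE 0.22, limma adjusted p = 0.0416, lower in both gates). Its call was lost under median-ratio rescaling (adjusted p = 0.0632), after quantile normalization (0.0696), without a filter on low values (0.0658) and without gate in the model (0.674), and over 11 alternatives its adjusted p ran from 0.0365 to 0.949 while the estimate stayed below 0. With 1 added before the logarithm, Ptgis had nearly the same estimate with a larger error (log2 -1.23, SE 0.33, limma adjusted p = 0.118, lower in both gates). On that scale both genes lay among the 66 lowest estimates of the 11992 genes. The likeness depends on that scale: with 0.1 added instead, the estimates were -2.36 for Ptgis (limma adjusted p = 0.0732) and -1.58 for Tmem37.

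For the remaining genes the F4/80lo fit gave estimates that did not pass. Serpina1a had a log2 of -0.75 (95% interval -1.38 to -0.12, limma adjusted p = 0.171). With 0.1 added in place of 1 its estimate was -1.69 (limma adjusted p = 0.149). The interval ran from -0.9995 to 0.20 for Hspb7 (estimate -0.40), from -0.998 to 0.26 for Mpzl1 (-0.37) and from -0.84 to 0.34 for Kcnj15 (-0.25). Tmem220 had -0.11 with an interval of -0.67 to 0.44 (limma adjusted p = 0.797). Tmem220, Kcnj15 and Hspb7 stood between 0.51 and 2.13 FPKM in these 4 libraries, and adding 1 before the logarithm understates the change of genes this low. The same holds for Serpina1a and Ptgis, which had at most 0.34 FPKM in the T-ALL F4/80lo libraries. Podn, with a mean of 0.493 FPKM, was under the filter. Without a filter its log2 was -0.56 (limma adjusted p = 0.154).

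Counted gate by gate without a test, 2 of the 5 genes that reached 1 FPKM were at least 2-fold lower in T-ALL Ly6chiF4/80lo (Tmem37 and Ptgis), where 7.79% of 11210 genes were, and 0 were at least 2-fold higher (9.31% of all). In Ly6cloF4/80lo these were 4 of 6 (Serpina1a, Hspb7, Tmem37 and Ptgis), where 3.68% of 11455 genes were, and 0 were higher (7.87% of all). Ptgis (both gates), Serpina1a (Ly6cloF4/80lo) and Hspb7 (Ly6chiF4/80lo) reached 1 FPKM there only in the normal library, so the rule could not count them as higher, and nothing is read from these counts against the share of all genes. Without regard to level, Tmem37, Ptgis, Podn and Serpina1a were at least 2-fold lower in both F4/80lo gates. Of these, Podn (2.83-fold and 5.06-fold) and Serpina1a (3.04-fold and 5.31-fold) had about 2 to 5 fragments in each T-ALL library, and Ptgis about 4 and 6. Tmem37 had about 26 and 14. Hspb7 was 1.28-fold and 2.07-fold lower, Mpzl1 and Kcnj15 had 1.01-fold to 1.96-fold differences, and Tmem220 differed by at most 1.24-fold. The difference between the gates was not tested, because the F4/80hi pair chose the genes.

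**Figure D4:**
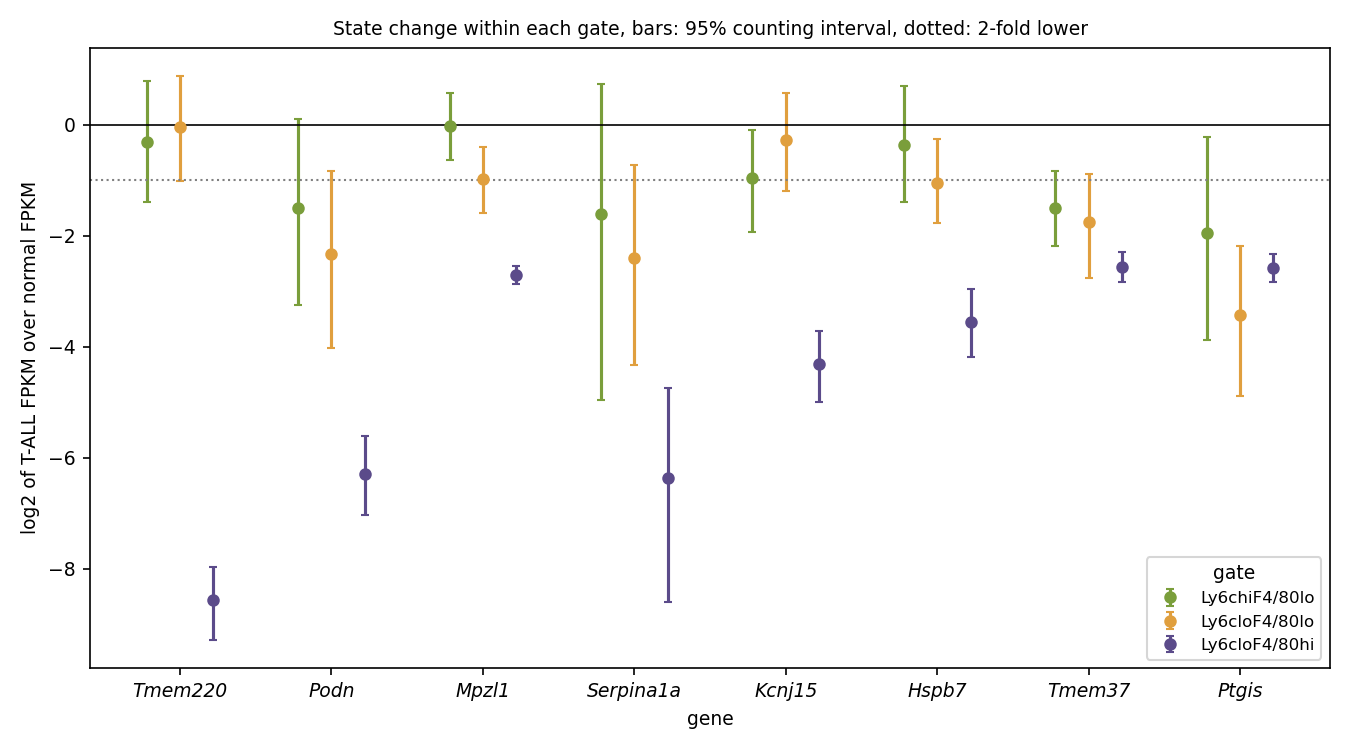
log2 of T-ALL over normal FPKM for each gene within each gate; points are the pair of libraries of a gate, bars the 95% counting interval, the solid line no difference and the dotted line 2-fold lower. The F4/80hi point (purple) lies lowest for each gene except Ptgis, and the F4/80lo intervals of Tmem220 include 0.

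Red pulp macrophage genes were tested in the same F4/80lo fit. Of 16 red pulp genes 5 fell (Axl, Fcna, Trf, Vcam1 and Slc40a1), 0 rose and 11 did not pass, with a median log2 of -1.12. Vcam1, an adhesion molecule of these cells, had a log2 of -1.43 (SE 0.20, limma adjusted p = 0.0228, lower in both gates). In normal mice the F4/80lo gates held Tmem37 at 11.8% and 6.16% of its F4/80hi level and Ptgis at 1.88% and 6.79%, against medians of 4.27% and 5.73% for the red pulp genes. Treml4, 1 of the 11, had 117 FPKM in normal and 164 FPKM in T-ALL Ly6cloF4/80lo. Sums of other marker lists differed between the states in these libraries too. In Ly6chiF4/80lo the 8 neutrophil genes summed to 13140 FPKM in normal and 44600 FPKM in T-ALL, the 6 plasma cell genes to 5851 and 14659 FPKM, and the 6 dendritic cell genes to 328 and 90.3 FPKM. In Ly6cloF4/80lo the 11 erythroid genes summed to 616 and 5963 FPKM. The part of these cells and of red pulp macrophage RNA in the F4/80lo values of the 8 genes was not tested. No gene passed in the lists of prostanoid genes (0 of 20), potassium channels (0 of 6), small heat shock proteins (0 of 5) or leucine-rich proteoglycans (0 of 3) in the F4/80lo fit, while Elane, Prtn3, Ctsg and Serpina3f rose among 11 tested serpins and their target proteases. Over all genes 2718 of 11992 had an unadjusted limma p under 0.05.

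The genes next to the 8 on their chromosomes mostly differed less. The nearest protein-coding gene on each side with at least 1 FPKM in a library was taken from the RefSeq gene order, a rule set after the values of the 8 were seen. Of these 16 neighbours 2 were at least 2-fold lower in T-ALL Ly6cloF4/80hi, Pirt (2.63 and 1.19 FPKM, 2.21-fold) beside Tmem220 and Slc1a7 (1.81 and 0.90 FPKM, 2.01-fold) beside Podn, against 9.92% of all genes. Adprm, on the other side of Tmem220, was at 10.87 and 8.47 FPKM. B4galt5 and Znfx1, which flank Ptgis, were at 6.88 and 5.04 FPKM and at 23.65 and 13.76 FPKM. The median log2(FPKM + 1) difference of the 16 was -0.17.

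Among 9529 other genes of at least 5 FPKM in a library, the patterns most like the mean of the 8 over the 6 libraries (Pearson r on centred and scaled log2(FPKM + 1)) were those of Cnpy4 (r = 0.996), Zfp384 (0.989), Kidins220 (0.989), Erbb2 (0.987) and Fkbp7 (0.987). These are descriptions over 6 libraries that share the F4/80hi pair. Except for Erbb2, the differences of these genes in that gate were smaller than those of the 8. Cnpy4 stood at 19.33 and 15.24 FPKM (1.27-fold) and Fkbp7 at 6.92 and 2.52 FPKM (2.75-fold). Erbb2, a receptor tyrosine kinase gene, had 7.24 and 0.92 FPKM (7.87-fold) and at most 0.25 FPKM in the F4/80lo gates. Its difference was wider than those of Mpzl1 (6.51-fold), Ptgis (5.98-fold) and Tmem37 (5.89-fold). Its normal level was under the 11.28 FPKM required for the order of falls.

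Promoter sequences (250 bases before to 50 after the start, RefSeq, GRCm38.p6) were found for 6 of the 8 genes, in 7 entries. Shown are 4 of them, 5′ to 3′ on the gene's strand: those of Serpina1a, Podn and Kcnj15, whose F4/80hi contrast was the widest among genes with an entry, and that of Tmem37, the gene that fell in the F4/80lo gates. Capitals mark matches to 6 motifs searched on both strands. The AP-1 motif was searched as TGANTCA. The C/EBP motif was TTGCNNAA, and the ETS motif of PU.1 and Spi-C was GAGGAAGT. The E-box was searched as CACGTG, the core of the heat shock element as GAANNTTC, and the TATA box as TATAAA.
Podn: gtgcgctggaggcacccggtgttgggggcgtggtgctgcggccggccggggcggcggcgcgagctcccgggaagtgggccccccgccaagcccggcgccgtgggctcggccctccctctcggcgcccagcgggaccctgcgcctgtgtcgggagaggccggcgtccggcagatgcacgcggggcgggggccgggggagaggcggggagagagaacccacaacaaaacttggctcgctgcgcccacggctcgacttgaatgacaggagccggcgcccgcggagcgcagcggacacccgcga
Serpina1a: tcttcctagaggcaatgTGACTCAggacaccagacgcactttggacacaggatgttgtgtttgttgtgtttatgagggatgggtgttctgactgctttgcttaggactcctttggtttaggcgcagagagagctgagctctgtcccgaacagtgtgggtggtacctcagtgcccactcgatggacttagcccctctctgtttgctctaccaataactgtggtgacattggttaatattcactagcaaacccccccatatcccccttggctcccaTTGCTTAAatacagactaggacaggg
Kcnj15: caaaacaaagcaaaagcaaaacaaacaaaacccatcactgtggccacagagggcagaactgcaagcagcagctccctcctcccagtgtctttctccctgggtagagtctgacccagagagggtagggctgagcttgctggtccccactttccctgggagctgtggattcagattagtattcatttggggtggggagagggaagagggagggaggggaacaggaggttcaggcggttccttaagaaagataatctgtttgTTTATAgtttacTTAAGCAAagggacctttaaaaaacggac
Tmem37: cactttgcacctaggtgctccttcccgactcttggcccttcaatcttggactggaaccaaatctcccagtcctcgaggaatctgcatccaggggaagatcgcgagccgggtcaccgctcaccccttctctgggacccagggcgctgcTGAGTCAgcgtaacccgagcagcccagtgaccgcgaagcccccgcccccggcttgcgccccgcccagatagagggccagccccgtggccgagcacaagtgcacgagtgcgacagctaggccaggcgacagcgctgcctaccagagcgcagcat
The Podn promoter lies at chr4:108031905-108032204 (minus strand), that of Serpina1a at chr12:103863570-103863869 (minus), that of Kcnj15 at chr16:95257308-95257607 (plus) and that of Tmem37 at chr1:120073731-120074030 (minus).

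The AP-1 letters occurred in the promoters of Tmem37 (TGAGTCA, starting 103 bases before the start) and Serpina1a (TGACTCA, 233 bases before), 2 of the 6 genes, and in 7.81% of 32851 mouse promoters of this length. The C/EBP letters lay in those of Serpina1a and Kcnj15 just after the start, and in 10.8% of all promoters, overlapping in Kcnj15 no other match. Kcnj15 also had the TATA box letters on the opposite strand (13.6% of all promoters). None of the 7 entries held the ETS, E-box or heat shock letters (3.20%, 7.15% and 7.86% of all promoters), nor did any motif occur in the entries of Podn, Mpzl1 and Hspb7. A match describes letters in this window and not a bound site. The GC content was 77.0% for the Podn entry shown, 65.3% for Tmem37, 53.7% for Hspb7 and 49.7% for Kcnj15, with a median of 52.7% over all promoters.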

How the data were processed

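RNA from 6 sorted spleen macrophage fractions (3 gates, normal and T-ALL, 1 library each) was sequenced. The deposited values are FPKM, for which the authors aligned reads with Bowtie2 2.2.5 and quantified them by RSEM. Both names come from the submitters' processing notes. Build, annotation and RSEM version: not given in the sources used here. Values began at 0.01, and genes absent from a library were set to 0. Symbols for 16017 of 16058 Entrez identifiers (99.7%) came from the RefSeq table of GRCm38.p6. The genes and lists were chosen with earlier results of these data known. Also named were the sort markers. Named genes were the 8, up to 6 list genes by highest level, the 5 most similar patterns and the 3 steepest falls outside the set.

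Depth was estimated from the steps between low FPKM values, in 296 to 336 genes per library that have 1 annotated transcript, using GENCODE M21 lengths less 30 bases. Fragments per gene are estimates from the median length of its RefSeq-matched transcripts, and exact binomial (Clopper-Pearson) intervals cover counting error only. The F4/80lo fit used limma 3.58.1 in R 4.3.3 with a trended, robust prior, 1 residual degree of freedom (median total 6.57), a pseudocount of 1 and two-sided tests. On simulated data it recovered most genes changed 4-fold and fewer of those changed 2-fold, a limit on the genes that did not pass. It also called more unchanged genes than its threshold allows, a limit on each F4/80lo call. The 2-fold counts used the plain FPKM ratio. Alternatives were another pseudocount, other filters, median-ratio and quantile scaling, no trended prior, no gate term and single libraries left out. Strand was not stated, so reads of Kcnj15, Ptgis, Kcnj9 and Omd cannot be told apart from those of genes on the opposite strand that overlap them.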

Additional observations from a re-analysis of the deposited data

How the results depend on the processing

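With 1 library per gate and state, any single library decides the contrast of its gate. Over the alternatives run, the F4/80lo estimates of the 8 genes kept their direction in every fit that tested them. In the F4/80lo fit, 68 genes were called lower and 264 higher, and 1 of the 8 lower. Without a filter on low values these were 21, 150 and 0, with median-ratio rescaling 21, 156 and 0, with quantile normalization 16, 105 and 0, and without the trended prior 39 lower. Without gate in the model 0 genes were called lower and 0 higher, with 852 genes at an unadjusted limma p under 0.05, and with each library left out in turn the counts were again 0 to 0, with 600 to 938 such genes. With gate in the model and a library left out, no error or test can be had, since no residual degree of freedom remains. The gate term paired the libraries by gate, but no pairing by mouse was possible because the labels do not say which libraries share mice. At least 2-fold lower in Ly6chiF4/80lo were 2 of the 8 genes, but 1 at a minimum of 5 FPKM, 1 on the log2(FPKM + 1) scale, and 4 with no minimum, chosen after seeing the data. In Ly6cloF4/80lo 4 were lower, and 0 at a minimum of 5 FPKM, which none of the 8 reaches there. Depth limits the F4/80lo values: Podn and Serpina1a had about 2 to 5 fragments in each T-ALL F4/80lo library.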
